A study of Homo sapiens with 5 samples.

Results

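The 9 genes described here encode transcription factors and cofactors of adrenal and gonadal development: GATA4, GATA6, WT1, CITED2, LHX9, SOX9, EMX2, TCF21 and GLI1. They were taken as a fixed list of symbols, chosen with earlier results of these data known. An SF-1 peak was given to a gene when the peak centre lay within 100 kb of the gene body in the hg19 build. By this rule 25 of the 30372 deposited peaks lay near 7 of the 9 genes. WT1 and TCF21 had none. Overlapping peaks of different lists were joined, which left 21 separate sites. The peaks came from ChIP-seq (chromatin immunoprecipitation followed by sequencing). The cells, H295R/TR SF-1, were derived as a subclone from the established adrenocortical tumor line H295R. All samples carried the inducible SF-1 construct. Cells grown without doxycycline had basal SF-1, and cells given doxycycline for 3 days had overexpressed SF-1. At each dosage chromatin was precipitated with an anti-SF-1 antibody from Millipore or from Perseus Proteomics, giving 4 peak lists, each called on 3 pooled libraries against input DNA. There is thus 1 list per group with no replicate error, and no test was made between lists. The files hold no expression values, so the cell type label was not checked against markers, and all results describe 1 subclone.

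The nuclear receptor SF-1 is encoded by NR5A1 and is needed for the formation of the adrenal glands and gonads. Both organs arise from a shared adrenogonadal primordium, in which several of these genes act before or beside SF-1. WT1 (a zinc finger protein), LHX9 (a homeodomain protein) and CITED2 (a cofactor that binds CBP and p300) are known for their role in this primordium and in switching on NR5A1. EMX2 is another homeodomain protein, of gonadal development. GATA4 and GATA6 are zinc finger factors that act with SF-1 on steroidogenic promoters. SOX9 drives Sertoli cell differentiation downstream of SF-1 and SRY, TCF21 is a bHLH repressor of NR5A1 in mesenchymal cells, and GLI1 is a zinc finger effector and target of Hedgehog signaling that marks progenitor cells of the adrenal capsule.

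The sequences that carry the main findings are printed first, all read 5′ to 3′ on the plus strand of the GRCh37 (hg19) reference. They are the GLI1 intronic site found in 3 lists (the part common to its 3 peaks, chr12:57855751-57856049), the LHX9 site found in 3 lists (common part, chr1:197871801-197871899), the best-ranked GATA6 site inside the window (chr18:19856101-19856349) and a GATA6 site of all 4 lists outside the window (common part, chr18:19606501-19606599). Capitals mark the SF-1 consensus NCAAGGNCN, in which the first and the seventh letter must be C or T and the last A or G. In the GATA6 site inside the window it lies on the minus strand. The LHX9 site and the outer GATA6 site held no match in the printed part, even with 1 mismatch.
GLI1 intron: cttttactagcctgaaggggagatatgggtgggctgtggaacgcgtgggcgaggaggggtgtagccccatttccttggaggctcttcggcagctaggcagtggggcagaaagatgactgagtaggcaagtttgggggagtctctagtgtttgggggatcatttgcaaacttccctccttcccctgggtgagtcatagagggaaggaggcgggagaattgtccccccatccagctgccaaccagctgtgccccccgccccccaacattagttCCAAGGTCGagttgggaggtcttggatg
LHX9 upstream: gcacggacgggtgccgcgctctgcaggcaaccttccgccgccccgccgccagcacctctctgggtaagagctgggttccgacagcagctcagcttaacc
GATA6 downstream: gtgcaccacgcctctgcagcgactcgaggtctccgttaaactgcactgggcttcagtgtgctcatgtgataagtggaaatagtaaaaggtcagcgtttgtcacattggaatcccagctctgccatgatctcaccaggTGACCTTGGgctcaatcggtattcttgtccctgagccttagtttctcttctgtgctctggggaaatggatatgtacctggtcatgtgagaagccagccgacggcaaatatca
GATA6 outer: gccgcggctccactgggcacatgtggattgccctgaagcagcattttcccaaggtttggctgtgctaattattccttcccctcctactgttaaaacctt

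GLI1 had 9 peaks in its window, more than the other 8 genes under the 100 kb rule. Counting only peaks with the gene itself as the nearest protein-coding gene, GLI1 had 3 and CITED2 had 4. Within 100 kb, GLI1 was the only one of the 9 with a peak in every list, with 2 in the basal Millipore, 2 in the overexpressed Millipore, 2 in the basal Perseus and 3 in the overexpressed Perseus list. In all protein-coding genes of the annotation, 19.5% had a peak within 100 kb in all 4 lists. Their windows held a mean of 0.539 basal and 2.07 overexpressed Millipore peaks per gene. For Perseus the means were 1.13 and 1.33. The gene body lies at chr12:57853568-57866051 on the plus strand. The site in its intron, chr12:57855701-57856199 when the 3 peaks are joined, was centred 2382 bp downstream of the transcription start site (TSS). An annotated lncRNA gene also overlaps this intron. The peak ranked 253 of 11910 in the overexpressed Millipore list, or at 2.12% of that list. In the basal Perseus list the peak ranked 699 of 6616 (10.6%), and in the overexpressed Perseus list 1829 of 7453 (24.5%). This was the best-ranked of the sites found in more than 1 list. No basal Millipore peak overlapped it, the closest lying 94950 bp from the centre of the overexpressed Millipore peak.

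The other 6 peaks in the GLI1 window lay at other genes. The window holds 10 more protein-coding genes, the largest number among the 9 windows. The basal Perseus peak at chr12:57824651-57824999 was centred 1 bp from the TSS of R3HDM2 and ranked 2352. Of the overexpressed Perseus peaks, the one at chr12:57914351-57914499 lay in an intron of DDIT3, 68 bp upstream of the MBD6 TSS, and ranked 1511. The one at chr12:57916401-57916599 lay in an intron of MBD6, 980 bp upstream of the DDIT3 TSS, and ranked 328 (4.40%). DDIT3 encodes a stress-induced transcription factor. The overexpressed Millipore peak at chr12:57912351-57912449 lay in an intron of DDIT3 and ranked 6678. The basal Millipore peaks lay in introns of R3HDM2, 92643 bp upstream of the GLI1 TSS with rank 939, and of KIF5A, 104982 bp downstream of it with rank 805. Within 50 kb of the gene body GLI1 had no basal Millipore peak. Each of these 6 peaks had another gene nearer than GLI1.

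**Figure D1:**
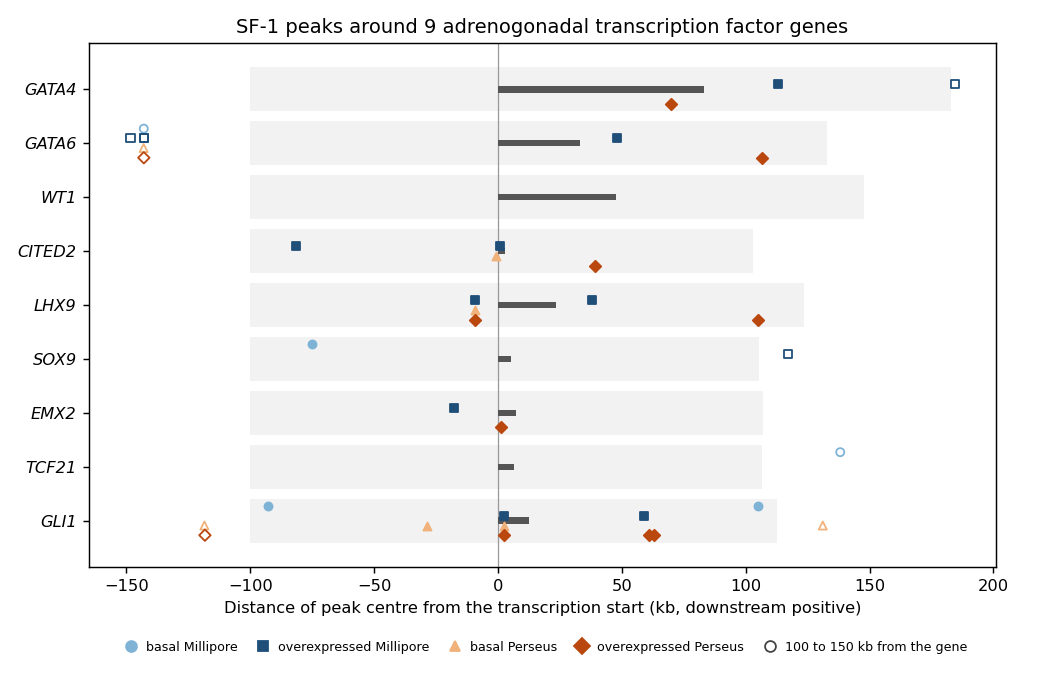
Distance of each peak centre from the TSS of the gene (kb, in the direction of transcription) for the 9 genes, with the gene body as a dark bar and the 100 kb window shaded. Filled symbols show the 25 peaks inside the windows by list, and open symbols peaks 100 to 150 kb from the gene, among them the GATA6 site of all 4 lists. WT1 and TCF21 have no filled symbol.

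LHX9 had 5 peaks, of which 3 formed a single site upstream of the gene. The gene body lies at chr1:197881032-197904608. The site at chr1:197871801-197871999 lay 9132 bp upstream of the LHX9 TSS and in a coding exon of the neighbouring gene C1orf53, whose TSS was 90 to 140 bp from the centres of the 3 peaks. Its peaks were in the poorer-ranked 50% of all 3 lists, at 10868 of 11910 in the overexpressed Millipore list (91.3%), 4694 of 6616 in the basal Perseus list (70.9%) and 5723 of 7453 in the overexpressed Perseus list (76.8%). The GC content of the site was 68.8%. Downstream of LHX9, an overexpressed Millipore peak at chr1:197918801-197918949, 14267 bp past the gene, ranked 3439 (28.9%). An overexpressed Perseus peak at chr1:197985901-197985999, 81342 bp past the gene, ranked 7209 (96.7%), near the end of its list.

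CITED2 was the only gene of the 9 with peaks within 1 kb of its TSS. The gene lies on the minus strand at chr6:139692944-139695785. A basal Perseus peak at chr6:139696401-139696699 was centred 765 bp upstream of the TSS, in an intron of an overlapping lncRNA gene, and ranked 1555 of 6616 (23.5%). An overexpressed Millipore peak at chr6:139694851-139695099 was centred 810 bp downstream of the TSS in a coding exon and ranked 5224 of 11910 (43.9%). The centres of these peaks were 1575 bp apart, and the peaks did not overlap. A second overexpressed Millipore peak lay 81390 bp upstream of the TSS (rank 7809), and the overexpressed Perseus peak lay 39335 bp downstream of the TSS (rank 4683). CITED2 therefore had a peak near its TSS with either antibody, at different dosages and different positions.

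EMX2 had 1 peak in each overexpressed list and none in the basal lists. The gene body is chr10:119301956-119309057. The Perseus peak at chr10:119302951-119303149 was centred 1094 bp downstream of the TSS in a coding exon and ranked 6451 of 7453 (86.6%). The Millipore peak at chr10:119284001-119284199 lay 17856 bp upstream of the TSS, in an intron of the antisense gene EMX2OS, and ranked 4235 of 11910 (35.6%). The closest basal peaks were 281 kb (Millipore) and 665 kb (Perseus) from the gene.

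WT1 had no peak of any list within 100 kb of its body at chr11:32409321-32457110. The closest was a basal Perseus peak 232 kb away (rank 2956), followed by an overexpressed Perseus peak at 448 kb. The closest Millipore peaks were 1043 kb away at basal and 1289 kb at overexpressed dosage. TCF21, at chr6:134210251-134216691, was likewise without a peak. Its closest peaks lay 132 kb (basal Millipore, in an intron of SLC2A12), 220 kb (overexpressed Millipore), 320 kb (basal Perseus) and 414 kb (overexpressed Perseus) away. The reference held no unknown bases in any of the 9 windows. Among all protein-coding genes 15.7% lacked a peak of every list in their window, against these 2 of 9 genes.

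SOX9 had a single peak, in the basal Millipore list. It lay 74961 bp upstream of the SOX9 TSS at chr17:70042101-70042299, in an exon of the lncRNA gene ROCR, and ranked 2260 of 4393 (51.4%). No peak of the other lists overlapped it. The closest overexpressed Millipore peak to SOX9 was just outside the window, 112 kb past the gene, with rank 5603. The closest Perseus peaks lay 187 kb (basal) and 443 kb (overexpressed) away.

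GATA4 had 1 peak in each overexpressed list. The gene spans chr8:11534468-11617511. The Perseus peak at chr8:11604201-11604299 lay in a GATA4 intron, 69782 bp downstream of the TSS, held the SF-1 consensus and ranked 6891 of 7453 (92.5%). The Millipore peak at chr8:11647301-11647399 lay 29839 bp past the gene and ranked 8931 of 11910 (75.0%). Its nearest gene was NEIL2 at 2496 bp. The nearest protein-coding TSS was that of FDFT1, with the peak 5732 bp upstream of it. Both GATA4 peaks stood in the poorer-ranked part of their lists. The closest basal peaks were distant, 687 kb away with the Millipore and 7588 kb away with the Perseus antibody. The basal Perseus list was thus empty over a wide region around GATA4, while it held 2.14 peaks per Mb of genome. Its lack of a peak there is not particular to this gene.

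GATA6 also had 1 peak in each overexpressed list, and they ranked higher. The gene spans chr18:19749550-19782491. The Perseus peak at chr18:19856101-19856349, whose sequence is given above, lay 73734 bp past the gene with GATA6 as the nearest protein-coding gene, and ranked 434 of 7453 (5.82%). The Millipore peak at chr18:19797401-19797549 lay 14984 bp past the gene in an intron of a lncRNA gene and ranked 4108 of 11910 (34.5%).

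The best-shared site of the GATA6 region was outside the 100 kb rule. It was singled out after its values were seen. It lay 143 kb upstream of GATA6, in an intron of the lncRNA gene LINC01900, and the nearest protein-coding TSS was that of GATA6. A peak was called there in every list, ranking 402 of 4393 in the basal Millipore list (9.15%), 462 of 11910 in the overexpressed Millipore list (3.88%), 5029 of 6616 in the basal Perseus list (76.0%) and 776 of 7453 in the overexpressed Perseus list (10.4%). The exact consensus was in none of these 4 peaks, nor in a further overexpressed Millipore peak beside them (rank 2124). Inside the windows the farthest peaks were 92499 and 92643 bp from the body of GLI1, and the nearest outside was an overexpressed Millipore peak 101 kb from GATA4.

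Between dosages, more of the 9 genes had a peak in the overexpressed than in the basal list when whole lists were used. For Perseus the counts were equal in shorter lists: with the better-ranked 50% of each list, or with every list limited to 4393 peaks, 2 genes had a Perseus peak at basal and 2 at overexpressed dosage. For Millipore the numbers were then 1 and 5 with the better-ranked 50% and 2 and 4 with 4393 peaks. The share of all protein-coding genes in these shorter lists is not given here, so these counts have no background to be read against. With Millipore, 2 genes (SOX9 and GLI1) had a peak at basal dosage and 6 at overexpressed dosage. Of all protein-coding genes, 36.5% had one in the basal Millipore and 67.9% in the overexpressed Millipore list, so the 6 of 9 were close to the background. With Perseus, 3 genes (CITED2, LHX9 and GLI1) had a peak at basal and 6 at overexpressed dosage, where the backgrounds were 52.6% and 56.7%. With 9 genes the 95% Wilson interval of a share of 6 ran from 35.4% to 87.9%, and that of 3 from 12.1% to 64.6%, so both shares were within counting error of the background. The numbers of peaks were 3 and 9 for Millipore and 4 and 9 for Perseus (exact 95% Poisson intervals 0.619 to 8.77 for 3, 1.09 to 10.2 for 4 and 4.12 to 17.1 for 9, for counting error only). The whole Millipore list grew from 4393 to 11910 peaks and the Perseus list from 6616 to 7453. Per Mb of window the 9 genes had 1.48, 4.45, 1.98 and 4.45 peaks in the basal and overexpressed Millipore and the basal and overexpressed Perseus lists. All protein-coding genes had 2.01, 7.70, 4.19 and 4.97, and the whole genome 1.42, 3.85, 2.14 and 2.41. The 95% Poisson intervals for the 9 genes were 0.306 to 4.34 and 2.04 to 8.45 per Mb for Millipore. For Perseus they were 0.539 to 5.07 and 2.04 to 8.45. Each interval included both reference values of its list.

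The same 6 genes, GATA4, GATA6, CITED2, LHX9, EMX2 and GLI1, had an overexpressed peak with either antibody, and 47.4% of all protein-coding genes did. The antibodies marked the same position at 2 of the 6. The matching share of all genes is not given here. By peak, 2 of 9 overexpressed Millipore and 2 of 9 overexpressed Perseus peaks overlapped one of the other antibody. Over the whole lists 11.5% and 18.5% did. At LHX9 and GLI1 the closest centres of the overexpressed Millipore and Perseus peaks were within 0.0500 kb. At EMX2 they were 18.9 kb apart, at CITED2 38.5 kb, at GATA4 43.1 kb and at GATA6 58.8 kb. GATA4, GATA6 and EMX2 had a peak with both antibodies at overexpressed dosage and with neither at basal dosage, a pattern held by 7.42% of all protein-coding genes. This grouping was made after the values were seen and has no test. It rested on poorly ranked peaks for GATA4 (75.0% and 92.5%) and for the Perseus peak of EMX2 (86.6%). In either kind of shorter list GATA6 alone of the 9 genes kept the pattern. The share of all protein-coding genes that kept it there is not given here, so this count has no background. For GATA6 the pattern depended on the 100 kb rule. The site 143 kb upstream of that gene had a peak in both basal lists (rank 402 for Millipore and 5029 for Perseus). For GATA4 the basal Perseus list had no peak within 7588 kb. Within 100 kb, GLI1 alone had a basal peak with both antibodies (25.3% of all protein-coding genes), at different positions.

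**Figure D2:**
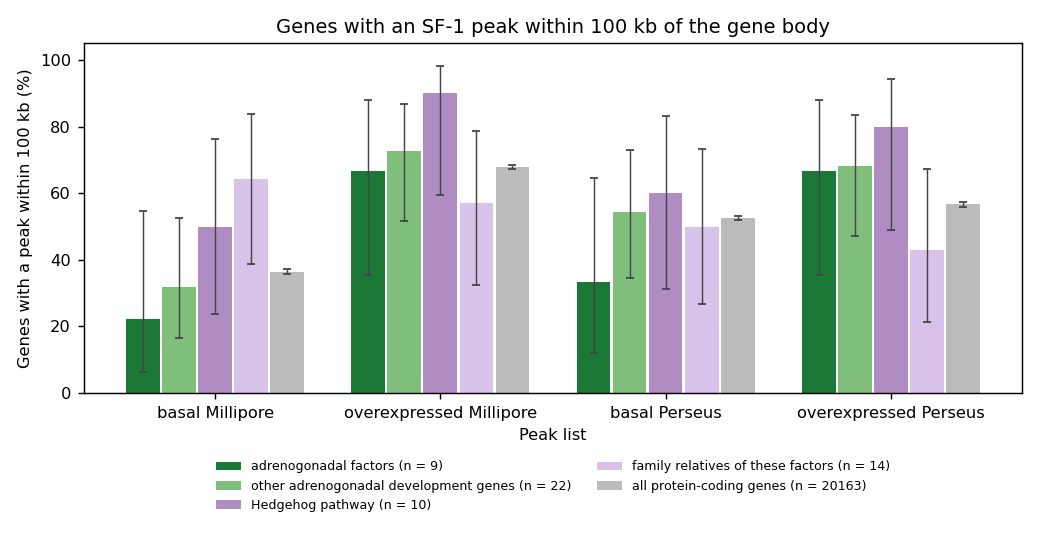
Percentage of genes with a peak within 100 kb of the gene body in each list (bars, with 95% Wilson intervals) for the 9 adrenogonadal factors, 3 related gene lists and all protein-coding genes. The 9 factors stand at 22.2% and 66.7% for Millipore and 33.3% and 66.7% for Perseus, and their intervals include the value of all protein-coding genes in each list.

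Sharing of single positions was limited to the LHX9 and GLI1 sites. Of the 21 sites, 19 were in 1 list, 2 were in 3 lists and 0 were in all 4. Overlap with a peak of any other list was counted by peak. For Millipore, 0 of 3 basal and 2 of 9 overexpressed peaks had it, against 20.9% and 16.6% of the whole lists. For Perseus, 2 of 4 basal and 2 of 9 overexpressed peaks had it, against 37.7% and 37.9%. None of the 3 basal Millipore peaks overlapped an overexpressed Millipore peak, while over the whole list 12.4% did. Of the 4 basal Perseus peaks, 2 overlapped an overexpressed Perseus peak, where the whole list had 29.5%. In the other direction it was 2 of 9 overexpressed Perseus peaks, against 26.2% of that list. Between antibodies, 0 of 3 basal Millipore peaks overlapped a basal Perseus peak (whole list 11.6%), and 2 of 9 overexpressed Millipore peaks overlapped an overexpressed Perseus peak (whole list 11.5%). Counted by gene rather than by position, 1 gene (GLI1) had a peak at both Millipore dosages and 3 genes (CITED2, LHX9 and GLI1) at both Perseus dosages, against 29.5% and 41.2% of all protein-coding genes.

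The ranks covered nearly the whole range of the lists. The best stood at 2.12% and the poorest at 96.7% of its list, with a median of 35.6%, and 14 of the 25 peaks were in the better-ranked 50%. A position in the best-ranked 10% was held by 3 peaks: the overexpressed Millipore peak in the GLI1 intron, the overexpressed Perseus peak in the MBD6 intron and the overexpressed Perseus peak downstream of GATA6. In the GLI1 window 8 of 9 peaks were in the better-ranked 50%. Of these 9, only 3 had GLI1 as the nearest protein-coding gene, and they were 1 site in 3 lists.

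**Figure D3:**
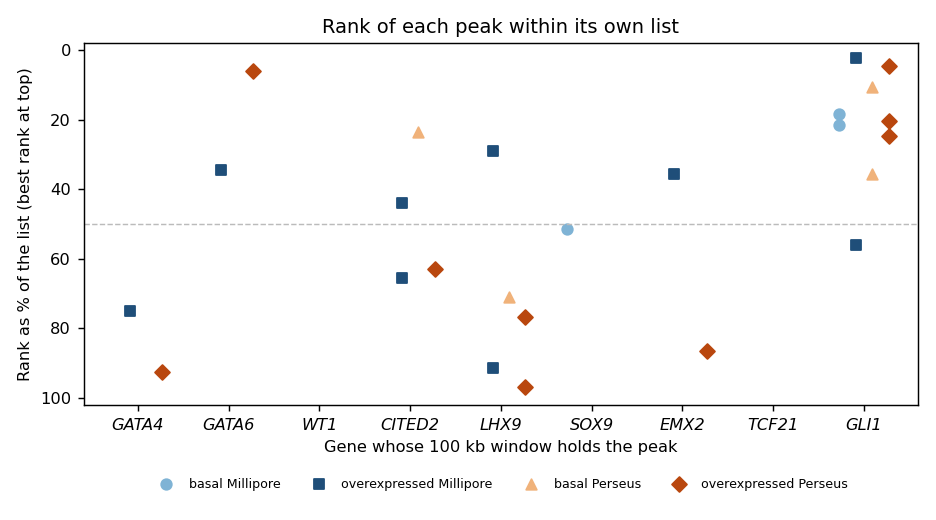
Rank of each of the 25 peaks as a percentage of its own list (best rank at the top, dashed line at 50%) by gene and list. Most points in the GLI1 window stand above the dashed line. Of the 9 points in this window, 3 have GLI1 as the nearest protein-coding gene, and these are 1 site found in 3 lists. The GATA4 peaks stand at 75.0% and 92.5% of their lists, while WT1 and TCF21 have no point.

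By position, 6 of the 25 peaks lay inside the body of their gene and 10 within 10 kb of it, from 5 genes (GATA4, CITED2, LHX9, EMX2 and GLI1). Of all protein-coding genes 53.8% had a peak within 10 kb in some list. Centres fell in introns of any annotated gene for 14 peaks, in coding exons for 5, in a UTR exon for 1, in a noncoding exon for 1, and between genes for 4. For 11 peaks the nearest protein-coding TSS belonged to another gene, and 6 of those 11 lay within 1 kb of it. The GLI1 intron site and the LHX9 site, in a C1orf53 coding exon, were each found in 3 lists and counted once per list. Shares of these feature and TSS classes over the whole lists are not given here, so the counts only describe the 25 peaks.

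The SF-1 consensus was found without mismatch in 3 of the 21 sites, at GATA4, GATA6 and GLI1. By list this made 0 of 3 basal Millipore peaks, 1 of 9 overexpressed Millipore peaks, 1 of 4 basal Perseus peaks and 3 of 9 overexpressed Perseus peaks. Over the whole lists 16.0%, 10.9%, 21.6% and 17.2% of peaks held it, in windows 5 kb away 1.22% to 1.69%. With at most 1 mismatch it was present in 10 sites, and the whole lists then stood at 34.6% to 46.8% and the windows at 17.5% to 24.2%. The 9-letter matches outside GATA4 are printed on the strand of the consensus, with the mismatched letter in lower case.
GATA6, downstream: CCAAGGTCA
GLI1, intron: CCAAGGTCG
GLI1, beside MBD6: CCAAtGCCG
CITED2, upstream of the TSS: TCAAGGaCA
CITED2, coding exon: TCAtGGCCA
SOX9, upstream: aCAAGGTCA
EMX2, upstream: CCAAGaCCA
EMX2, coding exon: CCAAGtCCG

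Peak starts lie on a grid of 50 bp and most peaks are narrow, so the flanking bases were searched too. With 100 bp added on each side, 8 of the 21 sites held the exact consensus, and the whole lists stood at 17.0% to 32.6% of peaks. The LHX9 site then had CCAAGGCCG, 30 bp from its edge, and the overexpressed Perseus peak downstream of CITED2 had TCAAGGTCA, 63 bp from its edge. The overexpressed Millipore peak in the DDIT3 intron had CCAAGGTCA at 13 bp, and the basal Millipore peak in R3HDM2 had TCAAGGCCA at 19 bp. The second GATA4 site also gained a match, at 26 bp. The consensus of NRSF/REST, a repressor of neuronal genes, was found in 0 of the 25 peaks when up to 4 of its 19 fixed letters were allowed to differ, where the lists as a whole had 0.181% to 1.07%. Median GC content of the peaks near the 9 genes was 46.7%, 55.3%, 65.2% and 62.6% in the basal and overexpressed Millipore and the basal and overexpressed Perseus lists, against 45.6%, 55.6%, 51.0% and 54.8% for the whole lists.

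Related genes were counted from 3 lists: other genes of adrenogonadal development, genes of the Hedgehog pathway, and family relatives of the 9 factors. These lists too were chosen with earlier results of these data known. Of 22 further adrenogonadal development genes, 7 and 16 (31.8% and 72.7%) had a peak in the basal and overexpressed Millipore lists and 12 and 15 (54.5% and 68.2%) in the Perseus lists, and 2 had none. All protein-coding genes stood at 36.5% and 67.9% for Millipore and 52.6% and 56.7% for Perseus, and 19.5% had peaks in all 4 lists. Peaks in all 4 lists were found at PKNOX1 (a homeodomain factor), CTNNB1 (beta-catenin, the effector of canonical Wnt signaling) and IGF1R (the IGF1 receptor). Of 10 further Hedgehog pathway genes, 5 and 9 (50% and 90.0%) had a Millipore peak and 6 and 8 (60.0% and 80.0%) a Perseus peak at basal and overexpressed dosage, and 4 were in all 4 lists: PTCH1 (the receptor), SUFU (the inhibitor of GLI proteins), GLI2 and GLI3. GLI2 had 4 and 11 Millipore and 1 and 5 Perseus peaks, and GLI3 had 2 and 2 Millipore and 4 and 2 Perseus peaks. Of 14 family relatives of the 9 factors, which include GLI2 and GLI3 again, 9 and 8 (64.3% and 57.1%) had a Millipore peak and 7 and 6 (50% and 42.9%) a Perseus peak. LHX2, a relative of LHX9, had 2 and 2 Millipore and 3 and 5 Perseus peaks. Gene length and neighbouring genes differ between these windows and were not adjusted for.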

How the data were processed

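H295R/TR SF-1 cells gave 4 peak lists, from basal or overexpressed SF-1 and either antibody. Reads were mapped by the authors to hg19 with ELAND v2 (CASAVA 1.6 in the submitters' processing notes) and called peaks with CisGenome v2 SeqPeak on triplicate samples against input. The deposited score is the rank of a peak in its list, on a quantity not given in the sources used here. A second deposited column, 1000 for every peak, was not used. Depth per list is unknown, and a deeper list holds more and weaker peaks. The input has no list and was not analysed here.

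Coordinates, printed from 1, were compared with GRCh37 and GENCODE version 44 mapped to it, with 20163 protein-coding genes on 24 chromosomes. Distances run from the peak centre to the gene body or the outermost TSS. Overlap of at least 1 bp counted as shared. Both strands were searched for each consensus. Python 3.11.15 with numpy 2.4.6, scipy 1.17.1 and pysam 0.24.0 was used, and the counting was tested on simulated data. The genes, gene lists and alternatives were chosen with earlier results of these data known. For each gene and list the best-ranked peak and the peak nearest the TSS are named, with each site of at least 2 lists and each peak in the best-ranked 10% of its list. Sequences were limited to sites of at least 2 lists or with the consensus, plus 1 chosen after its values were seen. The related lists were counted, and of their genes those in all 4 lists are named.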

Additional observations from a re-analysis of the deposited data

How the results depend on the processing

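No paired analysis was possible because each group has 1 pooled list. No replicate could be left out either, since the 3 libraries of a list were pooled. Of 75 values under other windows, rank limits, overlap rules and consensus searches, 51 stayed within 1.5 times the reported count. Some of these 51 could not move. A shared count of 0 stays 0 under stricter overlap or shorter lists, and a cut to 4393 peaks leaves the basal Millipore list whole. Within 10 kb of the gene body, 0 and 3 Millipore peaks (basal and overexpressed) and 4 overexpressed Perseus peaks were left, with 0 and 3 genes for Millipore. Within 50 kb no basal Millipore peak was left (0 peaks, 0 genes). With the better-ranked 50% of each list the overexpressed lists held 5 Millipore and 4 Perseus peaks, 1 gene had a basal Millipore peak, and 2 genes had a Perseus peak at either dosage. With every list cut to 4393 peaks by rank, the overexpressed lists held 4 peaks each, from 4 genes with Millipore and 2 with Perseus, and 2 genes also had a basal Perseus peak. Counting only peaks whose nearest protein-coding gene was one of the 9, basal Millipore had 1 peak at 1 gene and basal Perseus 2 peaks. Of the shared peaks, 1 was left between Perseus dosages under reciprocal overlap of 50%, under either shorter list, and 1 between antibodies at overexpressed dosage under either shorter list, at the GLI1 site. Sites with the consensus numbered 10 with 1 mismatch and 8 with 100 bp added on each side. The 10 kb counts and those of the shorter lists are lower because fewer peaks enter. List depth, which is unknown, limits all counts, and a missing peak means only that none was called.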
